A study of Equus caballus with 12 samples.

Results

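The genes described here are 53 genes of vesicle traffic in pooled horse oocytes, among 11425 genes in the deposited table. They were chosen by name alone: genes whose name starts with RAB, ARF, ARL, VPS, SNX, SEC, TMED, STX or VAMP followed by a digit, and 7 named subunits of the COPI coat, of which COPA was found. No ARF gene had a named row. The table lists Ensembl gene IDs without names, and 2627 IDs could be paired with a name through the gene lists published with the study. RNA was measured in 12 libraries, each made from a pool of 23 oocytes on average. In the VIM group (4 libraries, VGV in the labels), immature oocytes still within their corona radiata were vitrified at the germinal vesicle stage, that is frozen fast into a glass, then warmed and matured in vitro. In the VMAT group (3 libraries), oocytes were matured in vitro and denuded first, and then vitrified at metaphase II and warmed. In the FR group (5 libraries), oocytes were matured in vitro and denuded, and never vitrified. All 3 groups were matured in medium with follicle-stimulating and luteinizing hormone, and only oocytes with a visible polar body were kept. The ovaries came from a slaughterhouse, and the labels do not say which mares contributed to which pool or to how many groups. The p-values below therefore measure the spread between these libraries, part of which may be technical.

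Vesicle traffic moves proteins and membrane between compartments of the cell. Small GTPases of the Rab and Arf families mark each membrane and recruit effectors, the COPII and COPI coats carry cargo from the endoplasmic reticulum (ER) to the Golgi apparatus and back, and SNARE proteins such as syntaxins (STX) and VAMPs drive fusion. Sorting nexins (SNX), the retromer complex and other VPS proteins sort cargo on endosomes. In oocytes, the same machinery releases the cortical granules at fertilization and delivers the secreted proteins of the zona pellucida.

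Values are normalized counts, the reads of a gene divided by the library's size factor. Libraries held from 1636620 reads on genes (VMAT 1) to 12166950 (VMAT 2), and the other 10 held between 2123138 and 4715119. A floor of 3 reads corresponds to 0.376 in VMAT 2 and 9.34 in VMAT 1, counting error only. The size factors of VMAT 1 (0.321) and VMAT 2 (7.98) lay further apart than their reads. For the same share of reads, the normalized count was therefore highest in VMAT 1 and lowest in VMAT 2. Of 13 oocyte markers, 8 had a named row, and DPPA3, GDF9 and ZP4 each had 30 reads or more in all 12 libraries. The others were patchy too: KPNA7 reached 30 reads in 11 libraries, BMP15 in 10, ZP2 and ZAR1 in 9 each, and FIGLA in 6. FIGLA was at 0 in VMAT 1. ZAR1, a maternal-effect gene, was at 298, 337, 4.82 and 283 in VIM, at 3.11, 33.4 and 8.25 in VMAT, and at 151, 165, 115, 124 and 252 in FR. Its VMAT and FR libraries did not overlap (log2 fold change -3.83, SE 1.93, limma adjusted p = 0.950, and -3.37 with DESeq2, adjusted p = 0.0707), and its part in the results below was not tested. The sum over the 8, most of it DPPA3, was 9628 to 12189 in VIM and 11634 to 12706 in FR. In VMAT it ran from 10028 (VMAT 2) to 21661 (VMAT 1), the 2 libraries whose size factors departed most from their reads. Of 17 markers of cumulus and granulosa cells, only HAS2, the cumulus hyaluronan synthase, had a named row. It was at 641 to 2144 in VIM, 254 to 1755 in VMAT and 462 to 1239 in FR, and its part in the results below was not tested. The oocytes had been denuded before RNA extraction.

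The vesicle traffic genes were patchy. Most were plentiful in some pools of a group and down to a few reads in others of that group. Of their 636 values, 355 (55.8%) were 100 reads or more and 186 were below 10 reads, made up of 11 at 0 reads (1.73%) and 175 at 1 to 9 reads (27.5%). The other 95 fell in between. For named genes, 65.5% of values were 100 reads or more, 1.25% were 0 and 21.1% were 1 to 9 reads. For all genes of the table these shares were 25.9%, 40.4% and 25.6%. Taking 30 reads as present, 9 of the 53 genes (16.98%) were present in all 12 libraries and 24 (45.3%) in 6 or fewer.

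A pair of backgrounds bears on these shares. Over the whole table, 6.47% of genes were present in 12 libraries, 20.5% in 1 and 20.8% in none. Against all genes, the vesicle traffic genes were therefore present more widely, with 1.89% in 1 library and 0% in none. Over the 2627 genes with a name, 22.9% were present in 12 libraries and 26.1% in 6 or fewer. The second is the closer comparison, because each of the 2627 named genes was above 0 in all 5 FR libraries, which held for only 4157 genes of the table. Against named genes, a smaller share of the vesicle traffic genes was present throughout and a larger share in 6 libraries or fewer. Their median standard deviation (SD) of log2(normalized count + 1) over the 12 libraries was 2.83, against 2.51 for named genes. Among the 44 vesicle traffic genes above 0 in all 12 libraries, the highest value exceeded 100 times the lowest in 33. This was not counted for other genes, so it cannot be set against a background.

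**Figure D1:**
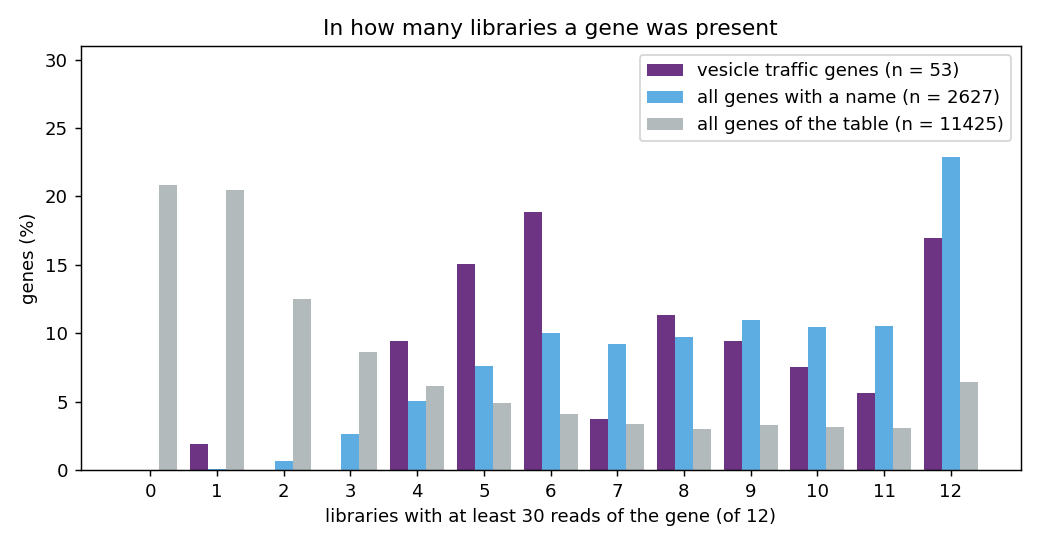
Share of genes (vertical axis, %) present with at least 30 reads in 0 to 12 libraries (horizontal axis), for the 53 vesicle traffic genes, the 2627 genes with a name and the 11425 genes of the table. Vesicle traffic genes peak at 6 libraries and again at 12, where 16.98% of them sit against 22.9% of named genes.

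**Figure D2:**
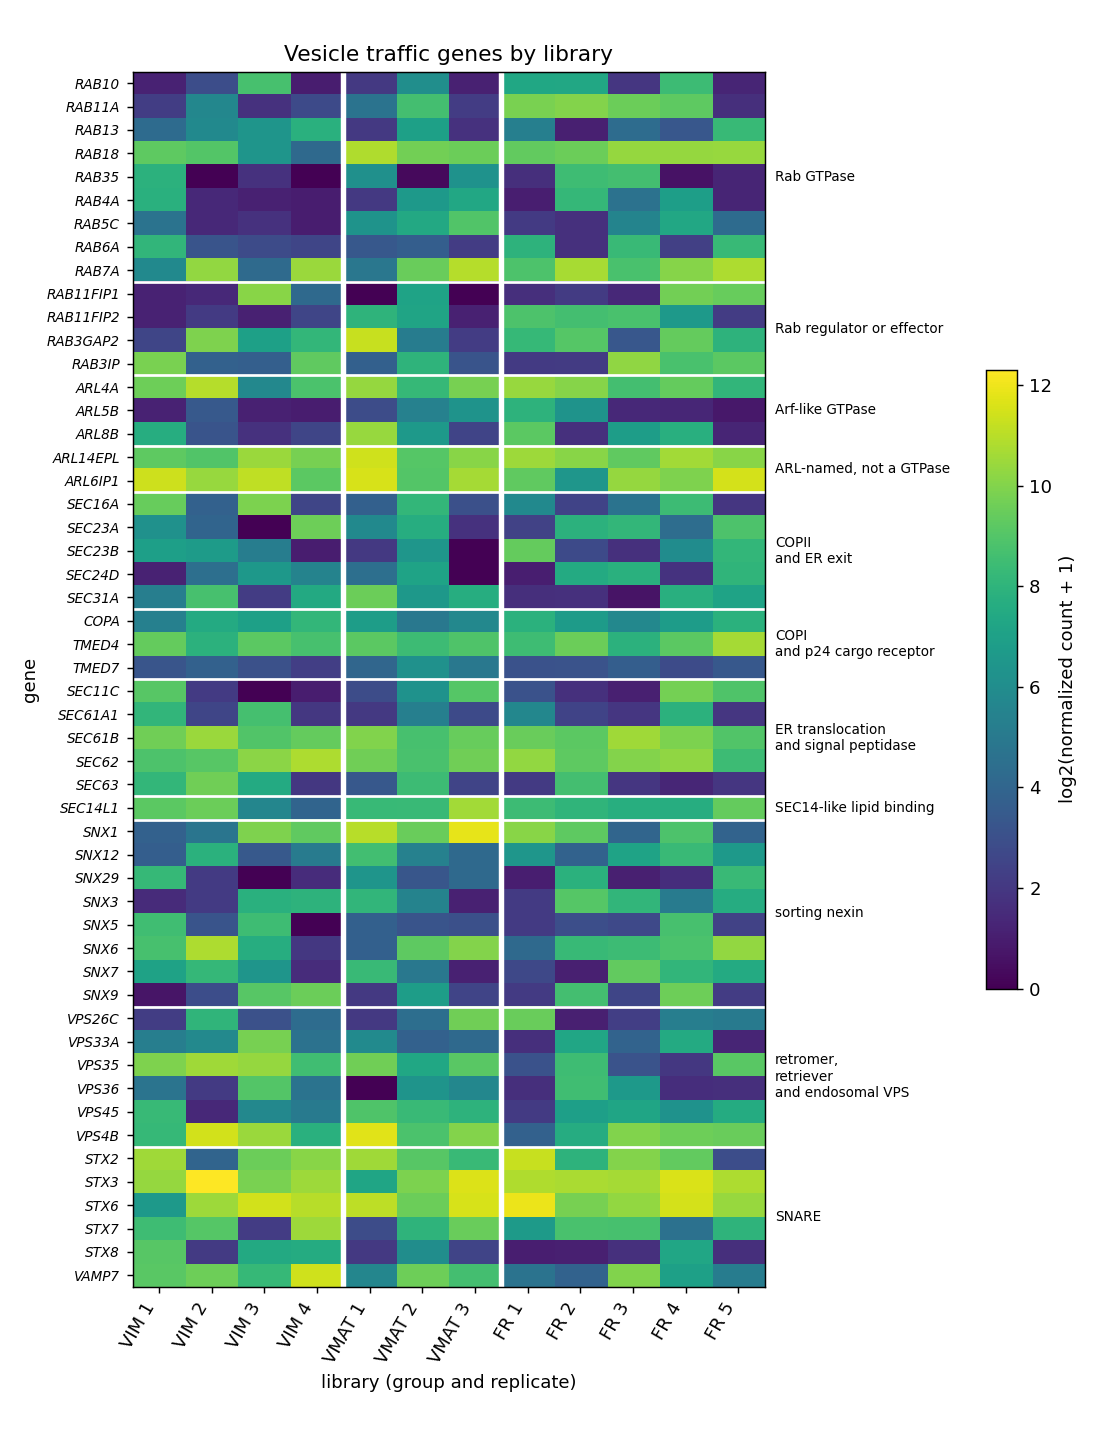
Level of 52 vesicle traffic genes (rows, grouped by role) in each of the 12 libraries (columns, by group and replicate), with colour giving log2(normalized count + 1). Rows such as SEC61B and SEC62 are even across the columns, while rows such as SNX9 and RAB35 alternate between high and near 0 within each group.

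The count of genes present moved with depth. VMAT 2, the deepest library, had 52 of the 53 genes at 30 reads or more, and VMAT 1, the shallowest, had 24. The others had 28 to 40 in VIM, 28 in VMAT 3 and 29 to 43 in FR. With all reads scaled to the total of the shallowest library, a calculation added after seeing the data, VMAT 2 still had 47. VMAT 1 and VMAT 3 then had 24 and 27, VIM had 25 to 34 and FR had 26 to 39. The genes took 0.551% to 1.04% of all reads, both ends of this range being FR libraries. Scaled by the size factors instead, also after seeing the data, VMAT 2 did not stand apart: 34 of its genes reached the normalized count that 30 reads have in VMAT 1 (93.4), against 24 to 36 in the other 11 libraries.

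**Figure D3:**
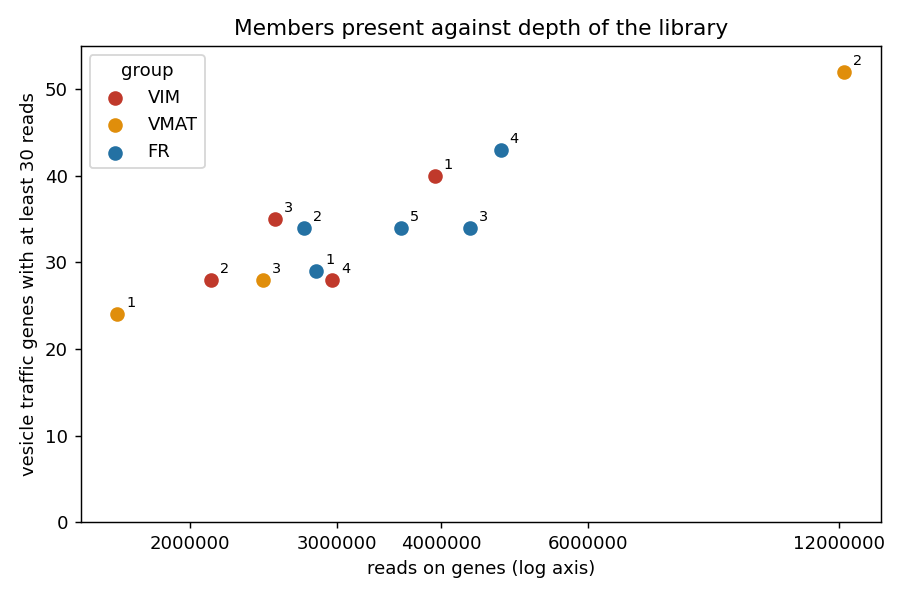
Number of vesicle traffic genes with at least 30 reads (vertical axis, of 53) against reads on genes (horizontal log axis) for the 12 libraries, coloured by group and labelled by replicate. VMAT 2, with 12166950 reads, stands apart at 52 genes, and the other 11 libraries lie between 24 and 43.

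The 6 steadiest members, among the 9 present in all 12 libraries, were SEC61B, SEC62, ARL14EPL, TMED4, COPA and STX3, which differ in role. SEC61B, the beta subunit of the channel through which new secretory proteins enter the ER, had the smallest SD (0.57 on the log2 scale). Its normalized counts were 798, 1395, 489 and 664 in VIM 1 to 4, 1008, 427 and 703 in VMAT 1 to 3, and 726, 589, 1470, 945 and 494 in FR 1 to 5. The 3 groups overlapped throughout. SEC62, which acts with the channel in post-translational import, followed with an SD of 0.72 and values from 349 in FR 5 to 1743 in VIM 4. ARL14EPL, named for its likeness to an effector of ARL14, had an SD of 0.73 and lay between 505 and 2735. TMED4, a p24 cargo receptor, had an SD of 0.76 and lay between 236 and 1582. COPA, the alpha subunit of the COPI coat, was low but even, between 29.1 and 280, with an SD of 1.06. STX3, a plasma membrane SNARE, ranged from 149 in VMAT 1 to 5043 in VIM 2, with an SD of 1.27.

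The partners of SEC61B and SEC62 did not share their evenness, for which these 2 genes had been picked. SEC61A1, the pore subunit that pairs with SEC61B, was present in 5 libraries, whereas SEC61B was present in 12. SEC63, which works with SEC62, was present in the 5 libraries VIM 1, VIM 2, VIM 3, VMAT 2 and FR 2, at 281, 791, 182, 348 and 391, and stayed at 9.34 or below in the other 7. SEC11C, a catalytic subunit of signal peptidase, reached 541 in VIM 1 and 848 in FR 4 and was at 0 in VIM 3. The inner COPII coat genes SEC23A and SEC23B, close paralogs, were both present in 4 libraries, 1 without the other in 3 and 3, and neither in 2. How the counting divided reads between such paralogs was not analysed here. The sorting nexins SNX5 and SNX6, which each serve in a retromer-linked coat, were present together in 4 libraries, and SNX6 without SNX5 in 5. Other pairs looked at ranged from STX6 and VPS45, both present in 10 libraries, to RAB11A and RAB11FIP1, both present in 2. STX7 and VAMP7 were both present in 8. All these pairs were taken from known biochemistry after the values were seen.

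The widest spread among the libraries belonged to RAB11FIP1, SEC11C, RAB35, RAB11A, SNX9 and RAB11FIP2, with SDs of 3.94, 3.74, 3.57, 3.53, 3.50 and 3.38 on the log2 scale. RAB11FIP1, an effector of RAB11, was at 1106 in VIM 3, 139 in VMAT 2, 807 in FR 4 and 689 in FR 5, and at 17.6 or below in the other 8 libraries. SNX9, which acts with dynamin in endocytosis, was at 543 and 746 in VIM 3 and VIM 4, 114 in VMAT 2, 390 in FR 2 and 779 in FR 4, and at 6.52 or below elsewhere. RAB35, a GTPase of endocytic recycling, was at 242 in VIM 1, 71.6 and 76.6 in VMAT 1 and VMAT 3, and 360 and 388 in FR 2 and FR 3. It was at 2.41 or below in the other 7. RAB11FIP1, SNX9 and RAB35 thus had high and low libraries within each group.

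The comparison of VIM with FR asks how oocytes vitrified while immature differ, once mature, from oocytes never vitrified. Differentially expressed (DE) genes were those with a limma adjusted p no higher than 0.05 and a log2 fold change no smaller than 1 in size. None of the 53 genes was DE with limma, and none of the 7351 genes tested was (0%). At an unadjusted p under 0.05 there were 6 of the 53 against 3.78% of all genes tested: 3 were higher in VIM (2.12% of genes tested), VPS35 and VAMP7 among them, and RAB18, RAB11A and RAB11FIP2 were lower (1.66%). Of the genes with a name, which like the 53 were above 0 in every FR library, 5.06% passed, 1.87% higher and 3.20% lower. edgeR on recovered reads called none (0%), with 2 of the 53 at an unadjusted p under 0.05 (16.8% of genes tested, 4.34% of named genes). DESeq2 on recovered reads called 2 of the 53, RAB11A and RAB11FIP2, both lower in VIM (4.56% of genes tested were called lower, and 6.95% in either direction). Over named genes these shares were 3.12% and 3.96%. This DESeq2 run called 511 of 7351 genes tested. The run for VMAT against FR called 358 of 8305, and that for VIM against VMAT called 298 of 7627. With DESeq2 and the same cutoffs, the study reported far fewer DE genes for each comparison. The reason for this gap was not tested, so the DESeq2 calls and adjusted p-values given here are not those of the study.

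RAB11A is the GTPase of the recycling endosome and RAB11FIP2 is one of its effectors. RAB11A was at 3.68, 50.5, 2.41 and 5.87 in VIM 1 to 4, at 24.9, 397 and 3.54 in VMAT 1 to 3, and at 893, 1019, 737, 602 and 2.15 in FR 1 to 5. It was high in 4 of 5 FR libraries and low in all 4 VIM libraries, and FR 5 alone made the groups overlap. The log2 fold change was -4.93 (SE 1.97) with limma (adjusted p = 0.902, exact permutation p = 0.0714) and -5.40 with DESeq2 (adjusted p = 0.00137). RAB11FIP2 was at 1.23, 3.26, 1.21 and 4.89 in VIM, at 252, 144 and 1.18 in VMAT, and at 459, 398, 442, 99.4 and 3.58 in FR. It too was near 0 in all 4 VIM libraries and in FR 5, where it had 5 reads. Its log2 fold change was -5.29 (SE 2.13) with limma (adjusted p = 0.902, exact permutation p = 0.0238) and -6.74 with DESeq2 (adjusted p = 0.000323). Both genes were present in FR 1 to 4 and VMAT 2, both were below 30 reads in 5 libraries, and each was present in 1 library without the other. The 2 results therefore rest on the same FR libraries. The calls differed between tools.

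RAB18, a GTPase of lipid droplets and the ER, was the 1 member whose VIM and FR libraries did not overlap (1.59% of genes tested did not overlap, 0.639% with VIM lower). For named genes the shares were 1.56% and 0.914%. It was at 600, 507, 85.6 and 17.6 in VIM, at 1808, 812 and 750 in VMAT, and at 642, 741, 1309, 1303 and 1346 in FR. The highest VIM library lay just below the lowest FR library, and with equal library totals in place of the size factors the groups overlapped. The log2 fold change was -2.77 (SE 1.06, limma adjusted p = 0.902, exact permutation p = 0.00794, the smallest that 4 against 5 libraries allow, and 0.949 adjusted over all genes tested). DESeq2 gave -1.82 with an adjusted p of 0.193. A lower level in a pool cannot tell fewer oocytes with the transcript apart from less of it per oocyte.

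VPS35 is the core subunit of retromer, which returns receptors from endosomes to the Golgi apparatus. It was at 964, 1501, 1326 and 373 in VIM, at 790, 158 and 573 in VMAT, and at 7.55, 353, 7.84, 3.03 and 568 in FR. The 7 vitrified libraries were all present for this gene, against 2 of 5 FR libraries well above the floor. Its log2 fold change in VIM vs. FR was 4.67 (SE 1.58, limma adjusted p = 0.902, exact permutation p = 0.0476), and in VMAT vs. FR it was 3.53 (SE 1.92, limma adjusted p = 0.950). Both comparisons use the same FR libraries. VAMP7, a SNARE of late endosomes and lysosomes, was at 571, 779, 301 and 2744 in VIM and at 24.8, 13.7, 995, 125 and 34.4 in FR, a log2 fold change of 3.48 (SE 1.36, limma adjusted p = 0.902, exact permutation p = 0.0556). For VPS35 and for VAMP7, 1 FR library lay within the VIM range.

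**Figure D4:**
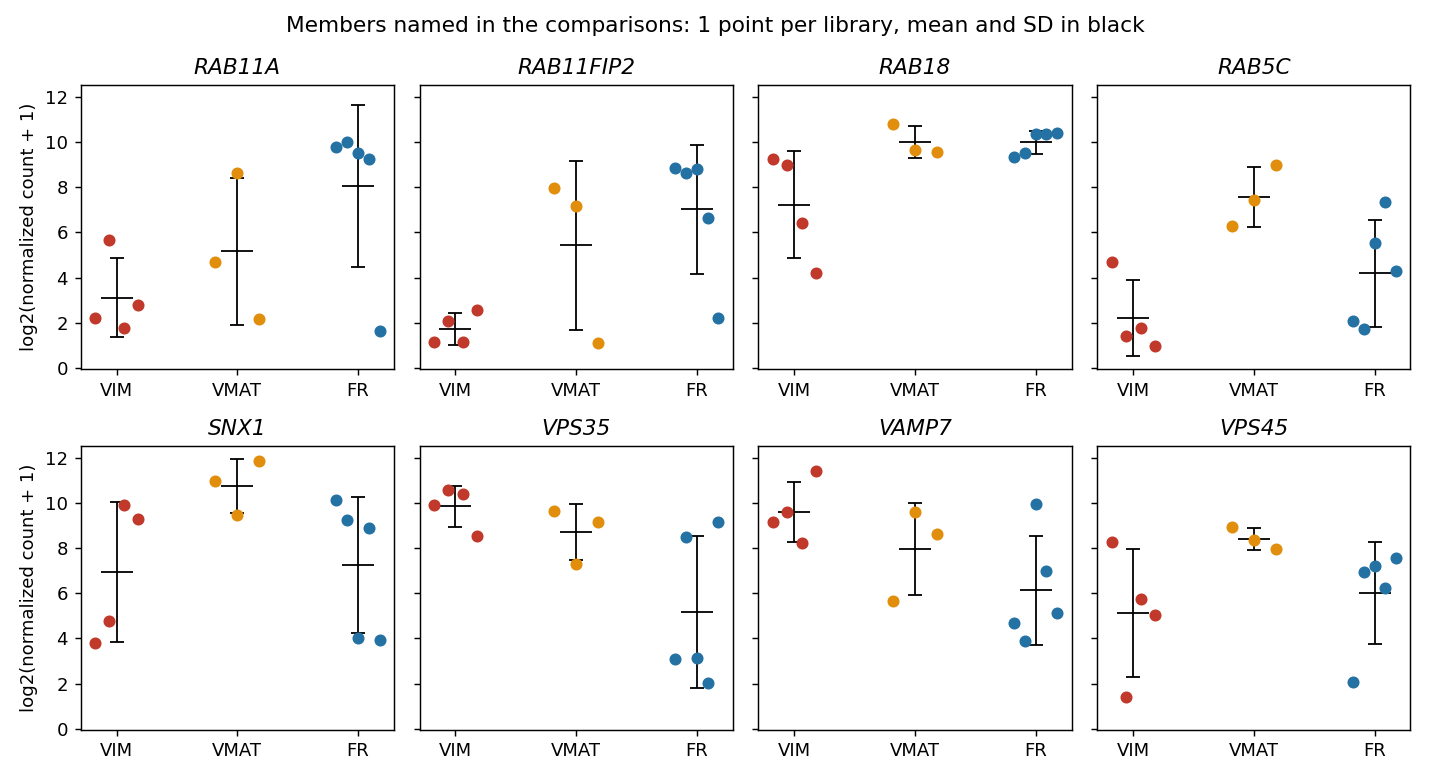
Levels of 8 vesicle traffic genes as log2(normalized count + 1) on the vertical axis, 1 point per library in VIM, VMAT and FR, with mean and SD in black. RAB11A and RAB11FIP2 are low in the 4 VIM libraries and in FR 5, RAB18 is the 1 gene whose VIM points all lie below its FR points, and VPS35 is high in all 7 vitrified libraries.

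By role, the 9 Rab GTPases had fold changes from -4.93 to 1.62 on the log2 scale in VIM vs. FR. Of the 9, 8 lay below 0, where 53.1% of all genes tested and 57.9% of named genes did. The exception was RAB13, and apart from RAB18 and RAB11A none reached an unadjusted p of 0.05. The 6 VPS genes ran from -0.90 to 4.67, the 8 sorting nexins from -1.55 to 1.27 and the 5 COPII genes from -1.41 to 2.12. With equal library totals the value of a gene shifted by a median of -0.11, and 3 of the 53 genes, none of them a Rab GTPase, changed sign. Over the 53 genes the median was -0.34, against -0.12 over all genes tested and -0.24 over named genes. These directions cannot be read as a property of the genes, since the way a gene got its name moved with them. The published lists are shortened and partly ordered by fold change, and the 44 genes named in the list of all genes had a median of -0.66 (12 above 0), while the 9 named only in the pathway lists had a median of 2.12 (9 above 0). In VMAT vs. FR the same split gave -0.30 and 1.60. VPS35, VPS4B, VPS36, VAMP7 and SEC31A are among those 9, so their higher levels fall under the same limit.

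**Figure D5:**
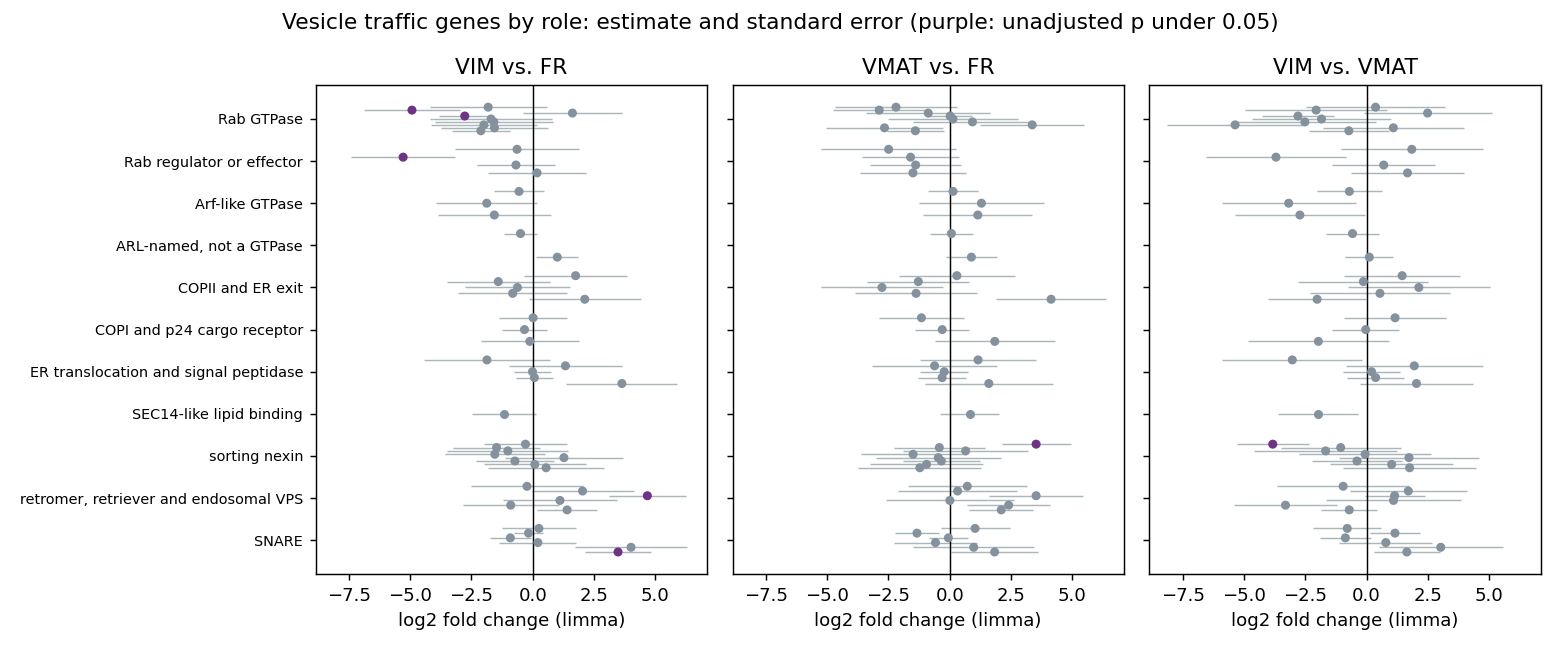
Log2 fold change from limma (horizontal axis) with its standard error for 52 vesicle traffic genes, by role (vertical axis) and comparison (panels), with purple points at an unadjusted p under 0.05. There are 5 purple points in VIM vs. FR and 1 in each of the others, and most error bars cross 0.

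The comparison of VMAT with FR asks what vitrification of mature oocytes changes. None of the 53 genes was DE with limma or edgeR, against 0% and 0.012% of 8305 genes tested. DESeq2 called none either (4.31% of genes tested, 2.13% of named genes). At an unadjusted p under 0.05 there was 1 with limma, SNX1, higher in VMAT, against 3.62% in either direction and 2.41% higher. Named genes had 4.45% and 0.914%. SNX1, a membrane-bending partner of retromer, was at 2007, 711 and 3671 in VMAT, at 12.9, 26.1, 970 and 619 in VIM, and at 1106, 607, 15.1, 467 and 14.3 in FR. All 3 VMAT libraries were high, and the other 2 groups each held high and low libraries. Its log2 fold change was 3.53 against FR (SE 1.40, limma adjusted p = 0.950, exact permutation p = 0.125) and -3.82 (SE 1.46, limma adjusted p = 0.967, exact permutation p = 0.143) in VIM vs. VMAT, which use the same VMAT libraries.

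SEC31A, the outer COPII coat subunit, was at 738, 93.6 and 203 in VMAT and at 2.16, 2.29, 0.560, 216 and 140 in FR. Its log2 fold change was 4.14 (SE 2.23, limma adjusted p = 0.950), with 2 FR libraries inside the VMAT range. VPS4B, an ATPase that takes ESCRT complexes off membranes, was at 3426, 454 and 1022 in VMAT and at 12.9, 192, 994, 764 and 724 in FR, a log2 fold change of 2.10 (SE 1.29, limma adjusted p = 0.950). VMAT and FR did not overlap for 2 genes, both higher in VMAT (3.19% of genes tested did not overlap, 1.96% with VMAT higher). Among named genes it was 3.01% and 0.647%. VPS45, which regulates endosomal syntaxins, was at 489, 323 and 249 in VMAT and at 3.23, 120, 148, 75.2 and 189 in FR, a log2 fold change of 2.40 (SE 1.69, limma adjusted p = 0.950, exact permutation p = 0.0893). TMED7, a p24 cargo receptor, was at 15.6, 73.5 and 29.5 in VMAT, at 8.59, 13.04, 7.23 and 3.91 in VIM, and at 7.55, 8.01, 11.8, 6.05 and 9.31 in FR. The exact permutation p was 0.0179 for VMAT against FR and 0.0286 for VIM against VMAT, the smallest that 56 and 35 splits allow (0.713 and 0.848 adjusted over all genes tested), with limma log2 fold changes of 1.84 and -1.96. TMED7 reached 30 reads in VMAT 2 alone and rested on 4 to 25 reads in the other libraries, 5 of them in VMAT 1. Its separation also rested on the size factors. VMAT 1 held 5 reads of 1636620, FR 3 held 21 of 4331042 and VIM 2 held 8 of 2123138. By share of reads, VMAT 1 thus lay below FR 3 and VIM 2, and VMAT overlapped both other groups.

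The DESeq2 calls changed without VMAT 2, the only library left out in a DESeq2 run. Without it, DESeq2, a calculation added after seeing the data, called 4 of the 53 genes in VMAT vs. FR (7.55%): RAB11A, RAB11FIP1, RAB10 and SEC23B. The share over all genes tested was 7.9%, against 4.31% with all samples, so the rise was not particular to the 53 genes. Each was at 139 or more, or at 66.3 and 87.5 for RAB10 and SEC23B, in VMAT 2, and at 24.9 or below in VMAT 1 and VMAT 3. RAB11A then had a log2 fold change of -5.55 (adjusted p = 0.0293), against -2.19 (adjusted p = 0.669) with all 3 libraries. These calls compare 2 VMAT libraries with 5 FR libraries.

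The comparison of VIM with VMAT sets vitrification at the immature stage beside vitrification at metaphase II. Other things differed between these groups too. VIM oocytes were vitrified within their corona radiata and VMAT oocytes denuded. VIM oocytes went through all of maturation between warming and sampling, and VMAT oocytes had only a short culture. Stage cannot be told apart from these differences. None of the 53 genes was DE with limma or edgeR (0% and 0.0131% of 7627 genes tested). SNX1 was the 1 member at an unadjusted p under 0.05 with limma, lower in VIM (2.98% of genes tested in either direction and 2.01% lower). Named genes stood at 3.84% and 1.56%. DESeq2 called RAB11FIP2 (3.91% of genes tested in either direction and 2.28% lower), with a log2 fold change of -5.65 (adjusted p = 0.0433) in VIM vs. VMAT. The limma value was -3.69 (SE 2.84, adjusted p = 0.967), and VMAT 3 was as low as VIM. Without VMAT 2, DESeq2 called 5 members (7.96% of genes tested), namely RAB5C, RAB11FIP2, STX8, RAB13 and SEC63.

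RAB5C, RAB18 and TMED7 did not overlap between VIM and VMAT, all lower in VIM (4.5% of genes tested did not overlap, 2.78% with VIM lower). The shares of named genes were 4.83% and 1.94%. RAB5C, a GTPase of early endosomes, was at 24.6, 1.63, 2.41 and 0.978 in VIM, at 77.8, 172 and 500 in VMAT, and at 3.23, 2.29, 45.9, 162 and 18.6 in FR. VIM was low in all 4 libraries and VMAT high in all 3, with FR between and overlapping both. VIM 1 held 40 reads and VMAT 1 held 25, so the gap between them rests on few reads. The log2 fold change was -5.36 (SE 2.77, limma adjusted p = 0.967, exact permutation p = 0.0571), and with DESeq2 it was -5.05 (adjusted p = 0.0506). Without VMAT 2 the DESeq2 value was -5.26 (adjusted p = 0.0496). RAB18 in the same comparison had a log2 fold change of -2.79 (SE 1.49, limma adjusted p = 0.967, exact permutation p = 0.143).

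Further genes of vesicle traffic, outside the name rule, came from a list of 235 that held clathrin and its adaptors, ESCRT subunits, tethers and regulators of Rab and Arf GTPases. Of these, 55 had a named row. With limma none was DE in the 3 comparisons, and 3, 7 and 3 of the 55 were at an unadjusted p under 0.05 (3.78%, 3.62% and 2.98% of genes tested) when VIM was compared with FR, VMAT with FR and VIM with VMAT. DESeq2 called 9, 4 and 0 of the 55 (6.95%, 4.31% and 3.91% of genes tested). TSG101, an ESCRT-I subunit, was at 56.5, 279, 9.64 and 253 in VIM, at 800, 127 and 162 in VMAT, and at 6.47, 6.86, 2.24, 2.52 and 5.01 in FR. All 7 vitrified libraries lay above all 5 FR libraries. The gap between VIM 3 (9.64) and FR 2 (6.86) rests on few reads, since 1 read is 1.21 in VIM 3 and 1.14 in FR 2. Of genes tested, 0.952% did not overlap with VIM above FR, and 1.96% with VMAT above FR. Its log2 fold change with DESeq2 was 5.03 (adjusted p = 0.00776) for VIM and 6.31 (adjusted p = 0.000215) for VMAT against FR, and with limma 3.95 (SE 2.14, adjusted p = 0.902) and 5.60 (SE 2.32, adjusted p = 0.950). IGF2R, the cation-independent mannose 6-phosphate receptor that sorts lysosomal enzymes, was at 2.46, 1.63, 3.62 and 3.91 in VIM and at 4.31, 6.86, 435, 784 and 208 in FR, a log2 fold change of -6.62 with DESeq2 (adjusted p = 0.000969) and -4.37 (SE 2.24, adjusted p = 0.902) with limma. Genes that the study called DE had kept their names in the shortened lists, so that counts over this list are not comparable with the background. TSG101 and IGF2R were chosen for mention after their values were seen.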

How the data were processed

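Per the labels and the study's methods, RNA from pooled oocytes was made into 3′ end libraries with unique molecular identifiers (QIAseq UPX). Before sequencing, the authors dropped 1 VIM and 1 VMAT pool, and no FR pool, after checking RNA amount and integrity. They trimmed reads (Trim Galore), mapped them to EquCab3.0 (STAR), processed them with SAMtools and UMI-tools and counted per gene with RSEM. They then left out 1 more VMAT sample, for low RNA integrity, low concentration and few reads. The deposited values are a signal per gene and sample: counts divided by DESeq2 size factors. Every value (100.0%, tolerance 0.001) was a whole multiple of its sample's step, so reads were recovered by division.

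Each comparison used its own samples, without pairing, and kept genes above 0 in 4 samples (VIM vs. FR) or 3 samples (the others). The test was limma 3.58.1 in R 4.3.3 (eBayes with trend, log2 with a pseudocount of 1), with Benjamini-Hochberg adjustment over all genes tested. Single genes had exact two-sided permutation tests. Alternatives included edgeR 4.0.16 and DESeq2 1.42.0 on recovered reads. Scripts were tested on simulated data. Same-numbered replicates did not deviate together (correlations of -0.0304 to 0.0131), and replicates differed by more than sampling noise.

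Members were named from the study's gene lists, which are shortened. For 2 members, STX7 and STX8, the name came from the position of the ID in a pathway list. Position pairs matched 7898 known names and contradicted 0. Genes named in the text were, per comparison, the 4 with the smallest limma p, those whose groups did not overlap and those DE with DESeq2, and over all samples the 6 with the smallest SD among members with 30 reads or more in every sample, and the 6 with the largest SD. The result of 1 gene is not reported here. Others were named as examples after their values were seen. The members and lists were chosen with earlier results of these data known.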

Additional observations from a re-analysis of the deposited data

Results flagged for a closer look

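Among the 21 vesicle traffic genes named by rule and 2 summed measures, 46 groups of 4 or 5 libraries were searched for a library far from the rest of its group. In 10 of them the gap to the nearest library exceeded the 95% critical value of Dixon's test. With normal values chance would give about 1 in 20 groups (2.3 of 46), which does not apply to these counts, since they span over 100-fold on a linear scale and some genes were chosen for their spread. In VIM, replicate 1 was the high library for RAB35 (242, others 0 to 2.41), SEC11C (541, others 0 to 3.26), VPS45 (307, others 1.63 to 53.0) and RAB5C (24.6, others 0.978 to 2.41). VIM replicate 2 was high for STX3 (5043, others 900.2 to 1429) and RAB11A (50.5, others 2.41 to 5.87), and VIM replicate 3 for RAB11FIP1 (1106, others 1.23 to 17.6). In FR, replicate 4 was high for STX3 (3074, others 1580 to 1854) and for RAB5C (162, others 2.29 to 45.9) and replicate 3 for VAMP7 (995, others 13.7 to 125). In all 10 the distant library was the highest of its group, in normalized counts on a linear scale.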

How the results depend on the processing

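Of 298 values of the 16 pairs of a named gene and a comparison under alternatives, 293 kept their direction and their side of the DE threshold, 5 became DE (with DESeq2) and 0 changed direction. Counts of DE members were 0 with limma and edgeR in all settings run, and with DESeq2 2 in VIM vs. FR and 1 in VIM vs. VMAT (all samples), and without VMAT replicate 2 it was 4 for VMAT against FR and 5 for VIM against VMAT. The number of members at an unadjusted p under 0.05 was 6 in VIM vs. FR, 2 with edgeR, and 3 to 7 with 1 library left out (3 without FR 3). In VMAT vs. FR it was 1, 2 with all 12 samples in one fit, 2 with the replicate block, which is not a pairing here, and 0 to 4 with 1 library left out (0 without VMAT 1, 2 without FR 2 or FR 4, 4 without FR 5). In VIM vs. VMAT it was 1, 2 without the filter, with a normalized count of at least 10 or without the trend, 3 with all samples in one fit, 6 with DESeq2, and 0 to 3 with 1 library left out (0 without VMAT 3, 2 without VIM 2 or VIM 3, 3 without VIM 1). With the replicate block it was 5 in VIM vs. FR. Members whose groups did not overlap in VIM vs. FR numbered 1, 0 with equal column totals, and 1 to 5 with 1 library left out (3 without VIM 2 or VIM 4, 2 without FR 3 or FR 4, 5 without FR 5). They numbered 2 in VMAT vs. FR, with 2 to 6 (6 without VMAT 2, 5 without FR 4), and 3 in VIM vs. VMAT, with 4 to 8 (8 without VIM 1, 6 without VMAT 2). The causes were not tested, apart from the fewer libraries a group without overlap then needs. Naming genes by a reference gene table was planned and not run, because the table given holds another assembly and no Ensembl IDs. Below 10 reads, where 29.2% of the members' values lay, a difference of a few reads is within counting error.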
